A study of Caenorhabditis elegans with 2 samples.

Results

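The cytosolic ribosomal protein genes of Caenorhabditis elegans were examined as possible targets of ELT-1, in 81 genes of the 19973 protein-coding genes on the nuclear chromosomes. Members were taken by symbol, as every protein-coding gene named rpl or rps with a number, with letter or decimal endings allowed, plus the stalk genes rla-0, rla-1 and rla-2. By symbol they comprised 47 rpl genes, counted as the large subunit, 31 rps genes, counted as the small subunit, and the 3 stalk genes. The assay was ChIP-seq of ELT-1, in which DNA cross-linked to a protein is recovered with an antibody and sequenced. Per the labels, the larvae were of the L2 stage, of both sexes pooled, and of strain OP354, which carries the unc-119(tm4063) III allele and the insertion wgIs354 for an eGFP fusion of ELT-1. The antibody field names elt-1, while the description gives the eGFP fusion as the target. The study holds 1 group of 2 biological replicates, both with this genotype. Whole animals were used, so the cells in which a site was occupied cannot be told apart.

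Cytosolic ribosomal proteins assemble with ribosomal RNA into the large and small subunits that translate messenger RNA in every cell, and their genes are among the most highly transcribed in a growing larva. ELT-1 is a zinc finger factor of the GATA family, whose members bind sites with the core GATA, most often written WGATAR, where W is A or T and R is A or G. In the worm ELT-1 is known for specifying epidermal cells in the embryo and for acting in the larval epidermis.

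Of the 81 ribosomal protein genes, 5 had a region of the thresholded list in the promoter window, the stretch reaching 1000 bp upstream and 200 bp downstream of any transcript start in the annotation. They were rpl-3, rpl-35, rpl-20, rpl-15 and rpl-12, all of the large subunit. The share of 6.17% stood beside 0.806% over all protein-coding genes, of which 161 had such a region. The 351 thresholded regions are those the authors kept by their reproducibility between replicates, and they were the first 351 of the 30000 regions ranked on the pooled replicates. The 5 summits are printed first, because they mark the peak of the ELT-1-eGFP signal in these regions. Which bases were bound, directly or through another factor, is not resolved by the lists. Each is given 5′ to 3′ on the strand of the gene, on the ce11 build (WBcel235), at chrIII:3867495-3867645 for rpl-3, chrIII:7854651-7854801 for rpl-35, chrIV:4749977-4750127 for rpl-20, chrIV:654863-655013 for rpl-15 and chrIV:13240652-13240756 for rpl-12. The first 4 stretches hold 75 bases on each side of the summit and that of rpl-12 ends just before its transcript start. Capitals mark AAGTGT and also AGTGTA on either strand, the words of 6 bases found within 50 bp of the summit at 4 of the 5 promoters.
rpl-3: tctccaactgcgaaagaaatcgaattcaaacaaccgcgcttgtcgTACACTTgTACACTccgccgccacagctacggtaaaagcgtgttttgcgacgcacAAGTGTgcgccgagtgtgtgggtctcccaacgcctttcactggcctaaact
rpl-35: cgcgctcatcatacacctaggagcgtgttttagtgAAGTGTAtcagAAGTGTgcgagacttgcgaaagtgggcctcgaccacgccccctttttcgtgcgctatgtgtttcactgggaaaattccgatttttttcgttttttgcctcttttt
rpl-20: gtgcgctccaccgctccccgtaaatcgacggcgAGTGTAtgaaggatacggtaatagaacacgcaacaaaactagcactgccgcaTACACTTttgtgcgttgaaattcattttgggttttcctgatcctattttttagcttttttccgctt
rpl-15: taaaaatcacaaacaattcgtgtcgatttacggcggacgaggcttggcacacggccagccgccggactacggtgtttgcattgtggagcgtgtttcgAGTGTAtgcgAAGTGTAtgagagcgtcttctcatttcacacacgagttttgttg
rpl-12: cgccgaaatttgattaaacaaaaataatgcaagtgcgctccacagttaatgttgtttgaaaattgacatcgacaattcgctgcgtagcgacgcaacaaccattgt

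The 4 promoters with these words were rpl-3, rpl-35, rpl-20 and rpl-15, and rpl-12 had neither. Of the 140 thresholded regions in the promoters of other genes, AAGTGT was found in 10, or 7.14%, and AGTGTA in 5, or 3.57%. Among the 18 member regions that ranked between 352 and 2000, AAGTGT was found in 2 and AGTGTA in 1. Both words overlap each other by 5 bases and were chosen because they recurred in these 5 windows, so the counts are a description with no test.

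The strongest region of a ribosomal protein gene lay upstream of rpl-3 (WBGene00004414, chrIII:3867854-3869587, plus strand), which encodes a protein that reaches the peptidyl transferase centre. The places given here for proteins in the ribosome are known from yeast and human ribosomes. It spanned chrIII:3867438-3867701 between annotated genes, and its summit lay 284 bp upstream of the start. The deposited signal was 52.6 in the pooled list, at rank 56, and it was 32.31 in replicate 1 and 21.19 in replicate 2. Signal scales differ between the lists, so below it is divided by the median signal of the list it came from and called a fold. The region stood 6.95-fold over the median in replicate 1 and 4.10-fold in replicate 2, a mean of 5.53 ± 2.02-fold (SD, n = 2). Its rank was 61 in replicate 1 and 60 in replicate 2, the closest pair of ranks among the members.

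The region of rpl-35 (WBGene00004449, chrIII:7855134-7855646, plus strand) spanned chrIII:7854594-7854857, with its summit 408 bp upstream. The rpl-35 protein sits beside the exit tunnel for the nascent chain. The fold was 5.18 in replicate 1, at rank 131, and 2.84 in replicate 2, at rank 208, with a mean of 4.01 ± 1.65 (SD, n = 2). Neither this region nor that of rpl-3 lay in the window of another protein-coding gene.

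The regions of rpl-20, rpl-15 and rpl-12 lay between divergent genes and fell in the window of the neighbour too. That of rpl-20 (WBGene00004432, chrIV:4749123-4749778, minus strand) spanned chrIV:4749920-4750183, with the summit 274 bp upstream of rpl-20 and 188 bp upstream of Y17G9B.5. Its fold was 4.18 in replicate 1, at rank 191, and 2.15 in replicate 2, at rank 645, with a mean of 3.16 ± 1.44 (SD, n = 2). With the nearest start alone this region belonged to Y17G9B.5, and 4 members then had a thresholded region. The region of rpl-15 (WBGene00004427, chrIV:653480-654576, minus strand) spanned chrIV:654806-655069, 362 bp upstream of rpl-15 and 452 bp upstream of K11H12.8.

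In replicate 1 the rpl-15 region stood at 3.77-fold, at rank 238, and in replicate 2 at 2.54-fold, at rank 315, with a mean of 3.16 ± 0.874 (SD, n = 2). The region of rpl-12 (WBGene00004424, chrIV:13239587-13240651, minus strand) was the one closest to a start, at chrIV:13240549-13240812, with its summit 30 bp upstream of rpl-12. It lay 363 bp upstream of lin-54, which encodes a DNA-binding subunit of the DREAM complex that regulates cell cycle genes. The rpl-12 protein forms the base of the stalk that recruits translation factors. Its fold was 2.77 in replicate 1, at rank 509, and 2.53 in replicate 2, at rank 324, with a mean of 2.65 ± 0.173 (SD, n = 2).

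All 5 regions were matched within 100 bp in both replicates, as were 132 of the 140 thresholded regions of other promoters, or 94.3%. The thresholded list was kept by reproducibility between replicates, so such matches follow largely from the selection. The fold was higher in replicate 1 at each of the 5. The same direction held at 109 of the 132 thresholded regions of other promoters that were matched in both, or 82.6%. The map of the 5 promoters shows where the pooled and the replicate regions lay.

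**Figure D1:**
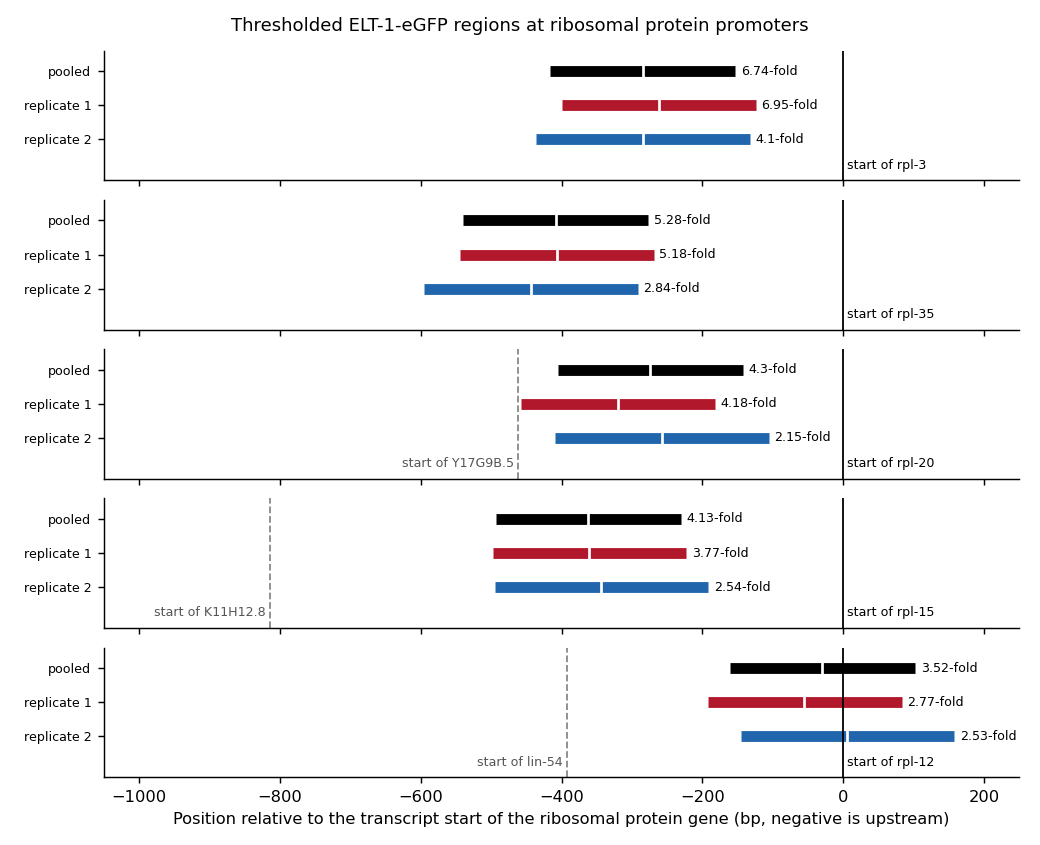
Thresholded regions at the 5 ribosomal protein promoters, drawn by position relative to the transcript start in bp, with upstream to the left. Bars span the region in the pooled list and in each replicate, white ticks mark summits, values are folds over the median region of the list, and dashed lines mark starts of neighbouring genes. The pooled summits lay between 30 and 408 bp upstream, and that of rpl-12 in replicate 2 lay 6 bp past the start.

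Regions of the longer lists, which include the thresholded ones, were also more frequent at ribosomal protein genes than over all genes. A region among the first 1000 of the pooled list was present at 16 members, or 19.8%, beside 2.56% of all protein-coding genes. For the first 2000 the count was 23 members, or 28.4%, beside 4.74% of all protein-coding genes. Any ranked region was present at 59 members, or 72.8%, beside 40.6% of all protein-coding genes. The strongest region of each of these 59 members had a median pooled signal of 10.4 and a median rank of 5283, against 8.29 and 12310 for the 8055 other genes with a region.

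Higher shares at members than over all genes were also seen in each replicate's own list. Among the first 2000 regions of replicate 1, 21 members had one, or 25.9%, beside 4.56% of all protein-coding genes. In replicate 2 it was 11 members, or 13.6%, beside 3.9% of all protein-coding genes. The count in replicate 2 was thus lower by more than 1.5 times than the pooled count. Among the first 351 regions of its own list each replicate gave 6 members, or 7.41%, beside 0.816% of all protein-coding genes in replicate 1 and 0.801% in replicate 2. In both replicates it was 3 members, rpl-3, rpl-35 and rpl-15, or 3.7%, beside 0.381% of all protein-coding genes.

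Genes of related function were set beside the members, chosen by symbol and without regard to their regions. Translation factors act on the ribosome during initiation and elongation. Their set took eif, eef and ife symbols plus genes added by name, with clu-1 and rack-1 among these. The set had 0 of 45 genes with a thresholded region. It had 7 of 45, or 15.6%, with one among the first 1000, clu-1 included, and 8 of 45, or 17.8%, among the first 2000. Proteasome subunits, the parts of the protease that degrades ubiquitylated proteins, had 0 of 33 at both levels and 4 of 33, or 12.1%, among the first 2000. Mitochondrial ribosomal proteins, which build the separate ribosome of that organelle, had 0 of 70 with a thresholded region, 1 of 70 among the first 1000 and 4 of 70, or 5.71%, among the first 2000. Beside the 72.8% of members, any ranked region was present at 21 of 33 proteasome genes, or 63.6%, 27 of 45 translation factor genes, or 60%, and 34 of 70 mitochondrial ribosomal protein genes, or 48.6%.

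**Figure D2:**
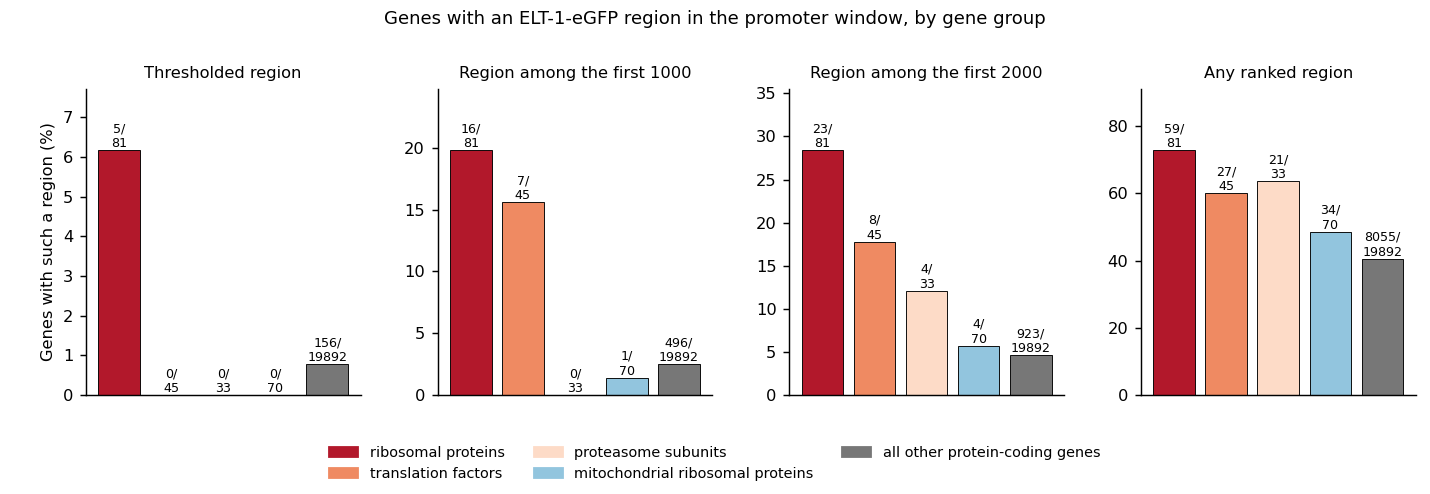
Share of genes in percent, on a separate axis per panel, with a region in the promoter window at 4 levels of the pooled list, with the count of genes above each bar. Ribosomal protein genes had the highest share at each level, 28.4% for the first 2000, against 4.64% of all other protein-coding genes, a group that includes the other sets shown.

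By subunit, the large one had 14 of 47 genes with a region among the first 2000, 37 of 47 with any region and 5 of 47 with a thresholded region. The small one had 9 of 31 among the first 2000, 22 of 31 with any region and 0 of 31 with a thresholded region. None of the 3 stalk genes had a ranked region. Over all protein-coding genes the shares were 4.74% for the first 2000, 40.6% for any region and 0.806% for a thresholded one. Over all 81 members the share with a thresholded region was 6.17%, and the difference between subunits was not tested. By chromosome, first-2000 regions were found at 7 of 25 members on I, beside 5.39% of all protein-coding genes there, and at 2 of 10 on II, beside 4.41%. They were found at 7 of 18 members on III, beside 4.89% of all genes there, and at 6 of 18 on IV, beside 4.42%. On V it was 0 of 8 members, beside 3.6% of all genes there, and on X 1 of 2, beside 6.77%.

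The first member outside the threshold was rps-15, whose protein lies in the head of the small subunit, at a pooled signal of 23.04 and rank 410, while the last thresholded region of the genome had 24.59. Its fold was 2.64 in replicate 1 and 1.56 in replicate 2, at ranks 569 and 2975. The region of rpl-24.2, whose human relative is a pre-ribosome assembly factor, ranked 432 in the pooled list and 260 in replicate 1, at 3.67-fold. It had no summit within 100 bp in replicate 2, where the nearest lay 188 bp away. The strongest replicate 2 region in the rpl-24.2 window had 1.65-fold, at rank 2345.

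The rps-28 region, at a gene whose protein lies near the path by which mRNA leaves the small subunit, was higher in replicate 2, at 2.82-fold and rank 218, and 2.01-fold and rank 1345 in replicate 1. The region of rpl-11.2, on chromosome X, had 2.67-fold in replicate 1 and 1.59-fold in replicate 2, and its protein contacts the 5S ribosomal RNA. The region of rps-23, a gene for a protein of the decoding centre, was nearly equal in both, at 1.92-fold in replicate 1 and 1.97-fold in replicate 2.

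The next regions were weaker or found in 1 replicate. That of rps-19, whose human counterpart is mutated in Diamond-Blackfan anaemia, had 3.69-fold and rank 252 in replicate 1, and in replicate 2 the nearest summit lay 887 bp away. At rps-12, a protein of the beak of the small subunit, the fold was 1.75 in replicate 1 and 1.30 in replicate 2. At rpl-21 it was 1.67 in replicate 1 and 1.48 in replicate 2. The region of rpl-17, which encodes a protein lining the exit tunnel, had 2.32-fold in replicate 1 and no match in replicate 2, where the nearest summit lay 149 bp away. The rpl-17 window did hold a region in the list of replicate 2, at 1.90-fold and rank 1166, beside rank 806 in replicate 1.

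The 5 matched regions whose ranks differed most were those of rps-11, rpl-29, rpl-43, the shared promoter of rps-14 and rpl-36, and rpl-22. At rps-11 the fold was 2.02 in replicate 1, at rank 1310, and 0.732 in replicate 2, at rank 29432. At rpl-43 it was 1.60 in replicate 1 and 0.745 in replicate 2. At rpl-29 it was 1.60 in replicate 1 and 0.727 in replicate 2. These 3 stood above the median region in replicate 1 and below it in replicate 2.

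At the divergent pair rps-14 and rpl-36 the single region had 1.57-fold in replicate 1 and 0.818-fold in replicate 2. The region of rpl-22 was the exception in direction, with 1.02-fold in replicate 1, at rank 14143, and 1.35-fold in replicate 2, at rank 5585. Its pooled rank was 877, above its rank in either replicate.

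**Figure D3:**
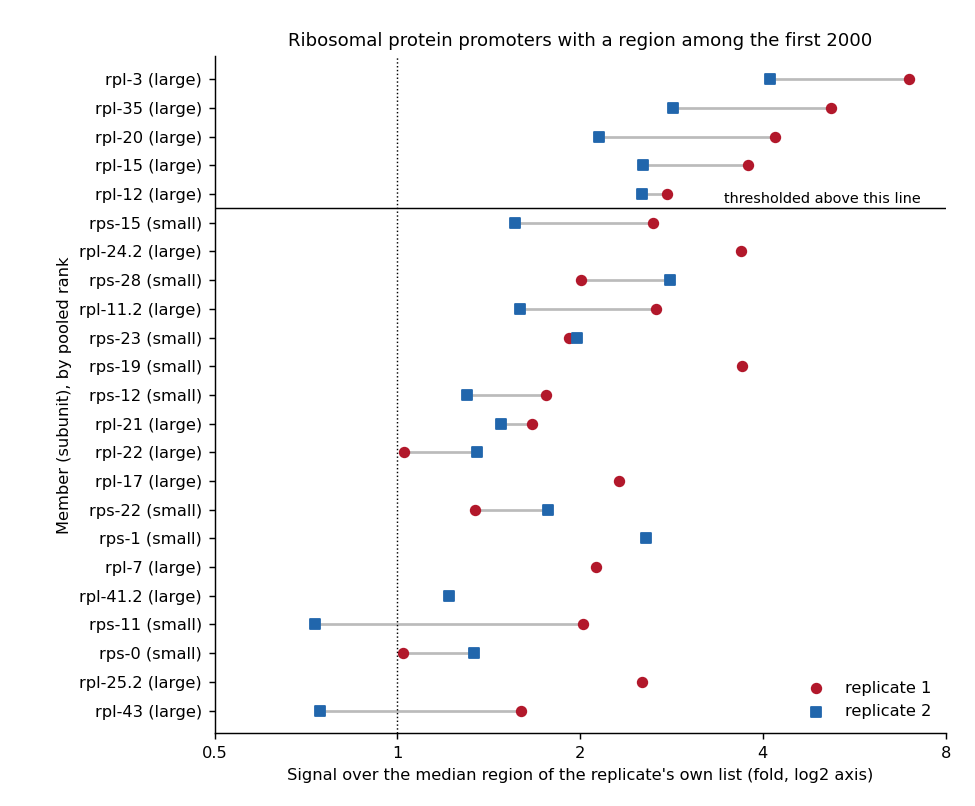
Fold over the median region of each replicate's own list, on a log2 axis, for the 23 members with a region among the first 2000, ordered by pooled rank from the top. Circles are replicate 1 and squares replicate 2, joined where both had a summit within 100 bp, and a lone symbol marks a region matched in 1 replicate. The 5 thresholded regions lay at 2.15-fold or more in both replicates, and 5 regions had replicate 1 alone and 2 had replicate 2 alone.

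Agreement between replicates followed rank. Of the 74 distinct member regions, 20 had a summit within 100 bp in both replicates, or 27.0%, 27 in replicate 1 alone, 17 in replicate 2 alone and 10 in neither. Of the 8913 other promoter regions, 15.3% were matched in both. Among the first 2000 regions the shares were close, at 16 of 23 members, or 69.6%, against 67.5% of other promoter regions. Below rank 2000 they were 4 of 51 members, or 7.84%, against 10.1% of other promoter regions.

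Across the 20 matched member regions, Spearman's rho between the ranks of the replicates was 0.689, against 0.341 across 1360 other promoter regions. Between ranks 352 and 2000 it was 0.236 across 11 member regions and -0.173 across 409 others. Regions share their library and are not independent, and the pooled ranks that select them come from the same reads, so rho is a description. For the strongest region of each member, 19 of 59 were matched, with a median fold of 1.92 in replicate 1 and 1.56 in replicate 2, a mean of 1.74 ± 0.25 (SD, n = 2). For other genes the median was 1.22-fold in replicate 1 and 1.17-fold in replicate 2, a mean of 1.20 ± 0.041 (SD, n = 2).

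Summits of the stronger member regions kept to the upstream side of the start. All 23 among the first 2000 lay upstream, from 30 to 582 bp, with a median of 284 bp and quartiles of 197.5 and 353 bp. For the 971 gene and region pairs of other genes in the same ranks the median was 263 bp upstream, with quartiles of 103 and 590.5 bp, and 11.1% lay downstream of the start. The medians were thus close and the spread narrower among members. The 53 weaker member pairs spread over the window, with a median of 279 bp upstream and 26.4% downstream, against 321 bp and 19.9% for other genes.

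**Figure D4:**
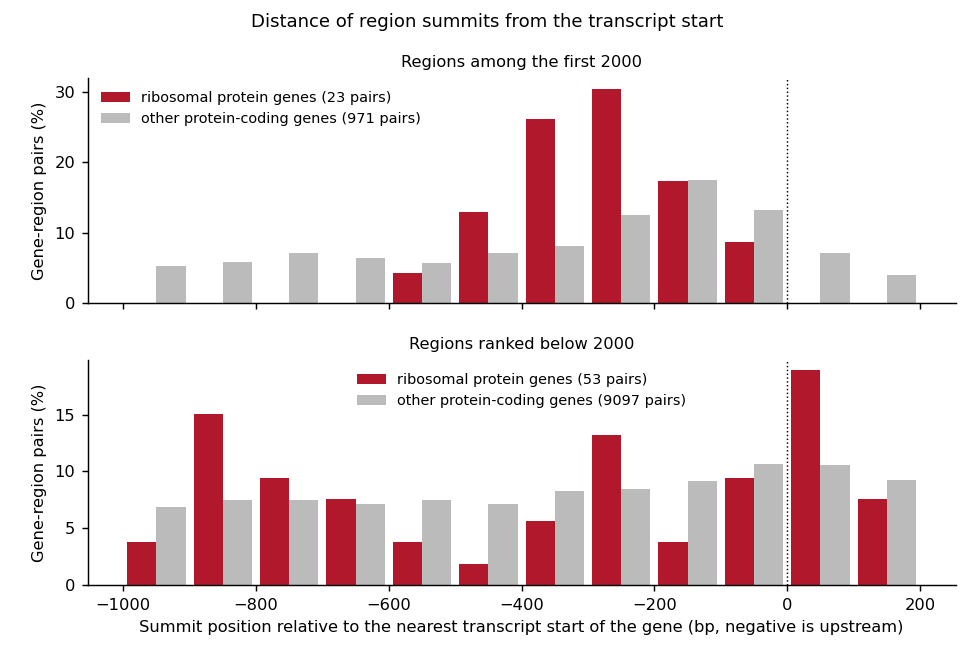
Share of gene and region pairs, in percent, by 100-bp bin of summit position relative to the nearest start of the gene, with upstream negative, for ribosomal protein genes and other protein-coding genes. In the upper panel the 23 pairs of members among the first 2000 lay between 30 and 582 bp upstream, and in the lower panel 26.4% of the weaker pairs lay downstream.

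Of the 23 member regions among the first 2000, 18 had their summit between annotated genes and 4 in an exon of a non-coding gene. These places were not counted for other promoter regions. In 17 of the 23 the summit also lay in the window of another protein-coding gene, so at these the member and its neighbour cannot be told apart. With regions in no other window alone, 6 members, or 7.41%, had one among the first 2000, beside 3.12% of all protein-coding genes. Of the genes with a first-2000 region, those with an unshared one were thus 6 of 23 members, beside 624 of 946 over all protein-coding genes. A thresholded one was then left at 2 members, rpl-3 and rpl-35, or 2.47%, beside 0.596% of all protein-coding genes.

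The GATA site was rare at these summits. Within 50 bp, WGATAR was found in 0 of the 5 thresholded member regions, against 70 of the 140 other thresholded promoter regions. Among the first 2000 it was found in 1 of 23 member regions, or 4.35%, against 230 of 801 others, or 28.7%. The 1 was rpl-24.2, the gene whose human relative is an assembly factor, and it held TGATAA. The form AGATAA was found in 0 of the 23, against 15.4% of the others. Below rank 2000 the shares were 9 of 51 member regions, or 17.6%, against 20.7% of the others.

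The shorter core GATA was found in 3 of the 5 thresholded member regions, against 83.6% of the others. At rpl-35 and rpl-12 it read TGATAC, 33 and 32 bp from the summit, and at rpl-20 GGATAC, 29 bp from it. The core at rpl-12 lay outside the stretch printed above, which ends just before the transcript start. At rpl-35 the site, read on the opposite strand, overlapped the bases marked in capitals. Widening the search to 100 bp on each side gave WGATAR in 2 of the 23 member regions, or 8.70%, against 45.8% of the others. Over the whole deposited region it was 4 of 23, or 17.4%, against 52.8%. In the first 2000 regions of each replicate's own list it was 3 of 20 member regions, or 15%, against 29.1% of others in replicate 1, and 2 of 11, or 18.2%, against 27.7% in replicate 2, so the difference was smaller there.

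Median GC content within 50 bp of the summit was 47.5% in the 23 member regions, against 42.6% in the 801 others. Below rank 2000 it was 42.6% in member regions, against 37.1% in the others. The part of base composition in the WGATAR counts was not tested. The E-box CACGTG was found in 0 of the 23, against 2.87% of the others, and TTTCAG, the end of a worm intron, in 2 of 23, or 8.70%, against 8.49%.

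**Figure D5:**
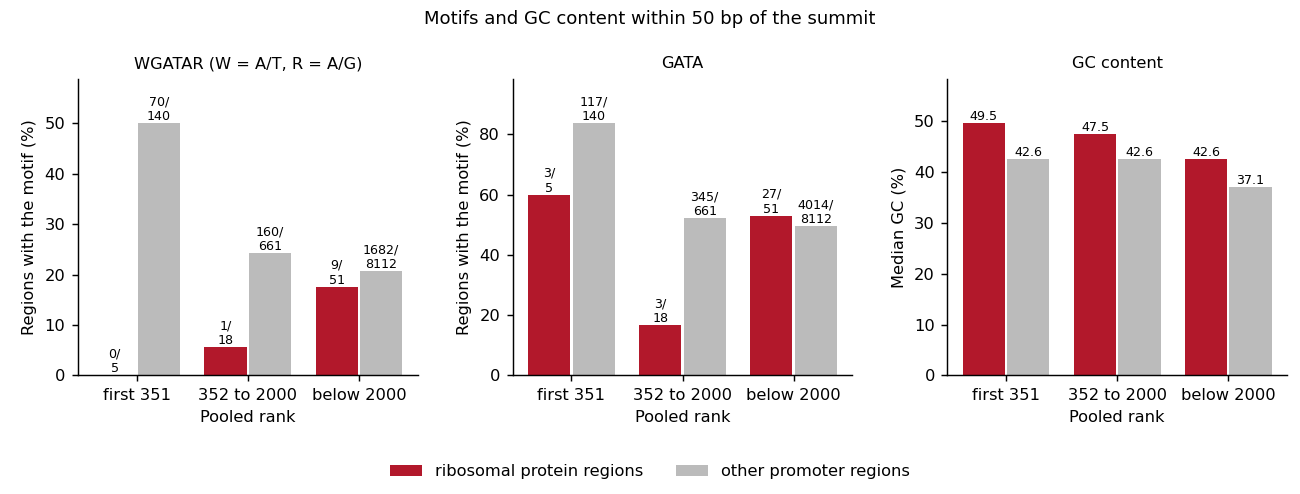
Share of regions with WGATAR and with GATA within 50 bp of the summit, and median GC content, each in percent, by band of pooled rank, for regions of ribosomal protein genes and other promoter regions, with counts or values above the bars. In the first 351, WGATAR was found in 0 of 5 regions of ribosomal protein genes against 70 of 140 others.

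Members whose strongest region held WGATAR were 8, and all but rpl-24.2 ranked below 2000. The next was rpl-7A at rank 2066, with 1.88-fold in replicate 1 and no match in replicate 2. The divergent pair rpl-24.1 and rps-10 shared a region at rank 5283, with 1.29-fold in replicate 2 alone. The others were rpl-32, rps-16, rpl-23 and rpl-33, at ranks from 8359 to 26604. None of the 8 was matched in both replicates. Below rank 2000 such matches were few with or without the motif, at 7.84% of member regions and 10.1% of other promoter regions. Genes with WGATAR at their strongest region were not counted outside the members.

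The promoters of the members shared words that are rare elsewhere. In the 500 bases upstream of the 5′-most start, searched on both strands for every word of 8 bases held by at least 15 members, GGCCTAAA was found at 22 of 81 members, or 27.2%, against 1.54% of 19892 other genes. It overlaps TGGCCTAA, at 22.2% of members against 1.27%, and TAGGCCAA, at 18.5% against 0.995%. GCGAGACC was found at 23 members, or 28.4%, against 2.26% of other genes, and AACGAGTG at 18.5%, against 1.21%. These 5 words were taken because they had the highest ratio of members to other genes, so their shares carry no test.

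GGCCTAAA is shown, as the word most common among members with a region in the first 2000, in 30-base stretches of 7 such members on chromosomes II, III, IV and X, 5′ to 3′ on the strand of the gene, on WBcel235. Capitals mark the word, which reads TTTAGGCC where it lies on the opposite strand.
rpl-3: cgcctttcactGGCCTAAActtcatttcaa
rpl-35: accatttttaaTTTAGGCCaaaaatcgaat
rpl-15: cgagttttgttGGCCTAAAcgatttttttg
rps-28: atgattgcgttGGCCTAAAatattttctct
rpl-11.2: tcttgttaaatTTTAGGCCctttacaattg
rpl-21: tttatgctactGGCCTAAAgattttttctc
rpl-22: gtagagttctcGGCCTAAAtttgcttcttt

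GGCCTAAA was held by 9 of the 23 members with a region among the first 2000, or 39.1%, and by 13 of the 58 other members, or 22.4%. It was held by 4 of the 22 members with no ranked region, or 18.2%, and by 1.95% of the 923 other genes with a region among the first 2000. GCGAGACC went the other way, at 4 of 23, or 17.4%, against 19 of 58, or 32.8%. Matches to GGCCTAAA lay from 20 to 371 bp upstream of the start, with a median of 219 bp, and 17 of 25 were on the strand of the gene. In the 9 members with a first-2000 region the word lay a median of 90 bp from the strongest summit. It lay within 50 bp in 1 of them and within 132 bp, the reach of a median region from its middle, in 7. These are not the 7 printed, of which rpl-35 and rpl-22 had the word 205 and 169 bp from the summit. In the 4 members with GCGAGACC and a first-2000 region, that word lay a median of 14 bp from the strongest summit, and within 50 bp in 3.

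At the low end of the ranked list stood rpl-27 at rank 28415, rpl-33 at 26604, rpl-31 at 26311, rpl-25.1 at 26270 and rpl-36.A at 24316. Their pooled signals ran from 6.052 to 6.494, below the median of 7.808 over all ranked regions. A further 22 members had no ranked region in the window. They were rla-0, rla-1, rla-2, rpl-2, rpl-4, rpl-9, rpl-10, rpl-14, rpl-16, rpl-37, rpl-38, rpl-41.1, rpl-42, rps-2, rps-5, rps-8, rps-13, rps-18, rps-21, rps-24, rps-27 and rps-30. In the replicates' own lists, 8 of these had a region in replicate 1 alone, 4 in replicate 2 alone, 3 in both and 7 in neither. The best rank among them was 6073 in replicate 1 and 7022 in replicate 2. A list of fixed length does not show that a promoter without a region was unoccupied.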

How the data were processed

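The data are region lists from ELT-1-eGFP ChIP-seq of L2 larvae, 1 group of 2 biological replicates. Per the file headers and listing deposited with them, the authors ranked 30000 regions for each replicate and for the pooled replicates, each against a control. Their thresholded list was kept by irreproducible discovery rate. Only the signal column was used, in the scale that the authors deposited. Not given in the sources used here are the aligner, peak caller, threshold, versions and control strain. Read depth is unknown, so no counting interval is given.

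Positions are 1-based on ce11 (WBcel235), with its RefSeq sequence and Ensembl release 115 genes. A region belonged to a gene when its summit lay from 1000 bp upstream to 200 bp downstream of a transcript start, and a region could belong to several genes. Distances are to the nearest start of the gene. Replicate values came from the nearest summit within 100 bp, and folds are over the median signal of the same list, so their SDs include differences of scale. For motifs, both strands of the 50 bp on each side of the summit were read. The symbol rpl-36.A was read as a letter ending. Named genes were the members with a thresholded region and the genes sharing it, the next 10 by pooled signal, the 5 with the largest difference in rank, those with WGATAR at their strongest region (up to 10), the 5 lowest and those with no region. With 1 group no test was made, and members are set beside other genes by counts and medians. Members, lists and rules were chosen with earlier results of these data known. The steps were tested on simulated data. Python 3.11.15, numpy 2.4.6, pandas 2.3.3, scipy 1.17.1 and matplotlib 3.10.9 were used. Alternatives changed the window, the assignment, the matching distance, the motif and the lists used. The ce10 lists and the other score columns were not used.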

Additional observations from a re-analysis of the deposited data

How the results depend on the processing

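Across the alternatives run, 25 values stayed close to the main one, counts within 1.5 times of it and the fold and distance within 1 SD between the replicates. Some of these were fixed in advance. The fold of either replicate alone always lies within 1 SD of their mean. Leaving out rpl-36.A, which had no thresholded region, could not change the thresholded count. The other 18 moved by more, or are correlations, for which any change is given. Counts have no direction, so only the distance and the correlations could change direction, and neither did. The 5 members with a thresholded region became 3 with the stronger part of the thresholded list, 2 without regions shared with another gene, and 6 in the first 351 regions of either replicate alone. Members with any region were 59, and 23 in the first 2000 regions. From 62 in replicate 1 alone to 56 in replicate 2 alone, the count with any region changed little. The 23 members of the first 2000 were 21 in replicate 1 alone, 11 in replicate 2 alone and 6 without shared regions, alternatives chosen after seeing the data. The median fold of the strongest region was 1.92 in replicate 1 and 1.56 in replicate 2. The median distance of -281.5 bp became -286.0 bp with the 5′-most start and -391.0 bp when the window reached 2000 bp upstream and 500 bp downstream, which admits farther summits by construction. The 20 regions matched in both replicates became 32 when an overlap of 1 bp counted. The 10 regions with WGATAR became 5 within 25 bp, 18 within 100 bp, 22 over the whole region and 5 for AGATAA alone, and the 1 among the first 2000 became 2 within 100 bp, 4 over the whole region, 3 in replicate 1 alone and 2 in replicate 2 alone, also chosen after seeing the data. Spearman's correlation of the replicate ranks was 0.688 with the strongest region of each member and 0.829 across the 16 regions matched within 50 bp. No paired analysis was possible because the series has 1 group. With 2 replicates, whole larvae and unknown depth, a region near the median of a list cannot be read as occupancy.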

Other observations

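The 7 genes of the translation factor set with a region among the first 1000 of the pooled list were named after their values were seen. They were eef-2 at rank 352, the first region below the threshold, clu-1 at 376, eef-1A.1 at 599, eef-1A.2 at 662, iff-2 at 737, eef-1G at 763 and eif-2Bgamma at 769. Of these, eef-2, eef-1A.1, eef-1A.2 and eef-1G encode elongation factors, and iff-2 encodes an eIF5A protein. Their summits lay from 18 to 839 bp upstream of a start.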
